A study of Homo sapiens with 16 samples.

Results

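A set of 10 genes tied to neuroblastoma was followed through the region lists of 16 CUT&Tag libraries from BE2C cells. They are LMO1, LIN28B, BARD1, CASC15 and HSD17B12, which lie in loci of inherited risk, CHD5, KIF1B and CAMTA1 on the short arm of chromosome 1, and ARID1B and TERT, which are altered in tumors. They were taken by name from 38690 protein-coding and long noncoding RNA genes, and each was examined over its GENCODE body in hg19 with 10 kb on each side. The 10 windows ran from 61.9 kb (TERT) to 1010.3 kb (CASC15) and summed to 3.35 Mb. BE2C is a human neuroblastoma line with amplified MYCN. The marks H3K27me3 and H3K4me1 were each mapped in a knockdown experiment, which compared siKDM6B33 (an siRNA to KDM6B) and the control siRNA siCtrl, and in a compound experiment, which compared 2.5 µM GSK-J4 (it inhibits KDM6 demethylases) and 0.1% DMSO. All treatments lasted 72 h. Every group had 2 libraries, which the study calls biological replicates. All groups are the same line, and the knockdown rests on 1 siRNA. The lists count no transcript, so the knockdown itself was not checked here.

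CUT&Tag uses an antibody to a mark to bring a transposase to the chromatin, which cuts and tags the DNA there. H3K27me3 is laid down by Polycomb repressive complex 2 and is removed by KDM6B, and it commonly covers the starts of silent developmental genes. H3K4me1 is found over enhancers and on the flanks of active starts, and long stretches of it are common at genes that define a cell's identity.

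In each library the authors had called broad regions (islands) and narrow peaks, and the unit of coverage here is the percent of a window that islands cover. The genome background of a library, the mean number of tags over a base, was 0.0395 to 0.0539 (H3K27me3) and 0.0849 to 0.107 (H3K4me1) in the knockdown experiment and 0.0298 to 0.0507 and 0.0483 to 0.0569 in the compound experiment, so the compound lists are shallower for H3K4me1. One library stood apart. GSK-J4 replicate 1 for H3K27me3 held 16676 islands with a median width of 3000 bp, against 8006 islands of 7400 bp in its replicate. In addition, H3K27me3 islands shared more of their length with H3K4me1 islands of the same treatment in the compound experiment (over all islands of a library, 58.4% to 60.1% under DMSO and 56.5% to 72.0% under GSK-J4) than in the knockdown experiment (9.96% to 10.1% under siCtrl and 12.5% to 12.8% under siKDM6B33). Whether an H3K27me3 island of the compound experiment that lies inside an H3K4me1 island carries H3K27me3 itself cannot be told from these lists. The part of depth and of this sharing in the results was not tested.

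After KDM6B knockdown, H3K4me1 at these loci differed in both directions. It covered more of the window in both siKDM6B33 libraries at 6 members (LIN28B, BARD1, CASC15, KIF1B, ARID1B and TERT) and less at the other 4 (LMO1, HSD17B12, CHD5 and CAMTA1). Among 8163 genes with windows of at least 60 kb and an H3K4me1 island, 61.1% were higher and 18.8% lower in this sense, with no overlap between the groups. The median difference was 1.64 percentage points over those genes and 0.485 over the 10 members. Over the 10 windows together H3K4me1 islands covered 8.91% and 9.01% under siCtrl and 7.28% and 7.68% under siKDM6B33 (8.96 ± 0.0717 and 7.48 ± 0.283, SD of n = 2 libraries, exact two-sided permutation p = 0.33). No p under 0.33 can be reached with 2 libraries against 2, so each difference below is read against the spread between replicates. This lower sum came from CAMTA1, and without that gene the difference turned to 1.09 percentage points higher after knockdown.

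In the knockdown experiment 4 members held an H3K27me3 island (LMO1, CASC15, CHD5 and TERT), as did 33.5% of 11295 genes with windows of at least 60 kb. LMO1 was higher and CHD5 lower in both siKDM6B33 libraries, where 43.2% of 3779 genes were higher and 11.0% lower. The LMO1 difference of 2.64 percentage points was 0.932 with islands within 2 kb joined. The CHD5 islands measured 4.4 and 4.0 kb under siCtrl against 3.6 and 3.8 kb, and islands were called in 200-bp windows. In the compound experiment 7 members held an H3K27me3 island, against 42.4% of the 11295 genes, although those of BARD1 (1.0 kb over its start) and ARID1B were called in GSK-J4 replicate 1 alone. There CASC15, CHD5 and CAMTA1 were higher in both GSK-J4 libraries and no member was lower (17.2% and 9.62% of 4793 genes). With the same number of islands taken from each library 0 members were higher, and with equal covered length the count was 3, these same genes. CASC15 had 0.356% and 0.416% under DMSO and 0.732% and 0.475% under GSK-J4. In replicate 1 this includes 2 islands called in that library alone (chr6:21953201-21954600 and chr6:21996601-22000400), and without it the difference of 0.218 percentage points was 0.0891. For H3K4me1 under GSK-J4, CHD5 and ARID1B were higher and CASC15 was lower (24.2% and 18.1% of 5597 genes). LIN28B, HSD17B12 and KIF1B had no H3K27me3 island in any of the 8 libraries of that mark.

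**Figure D1:**
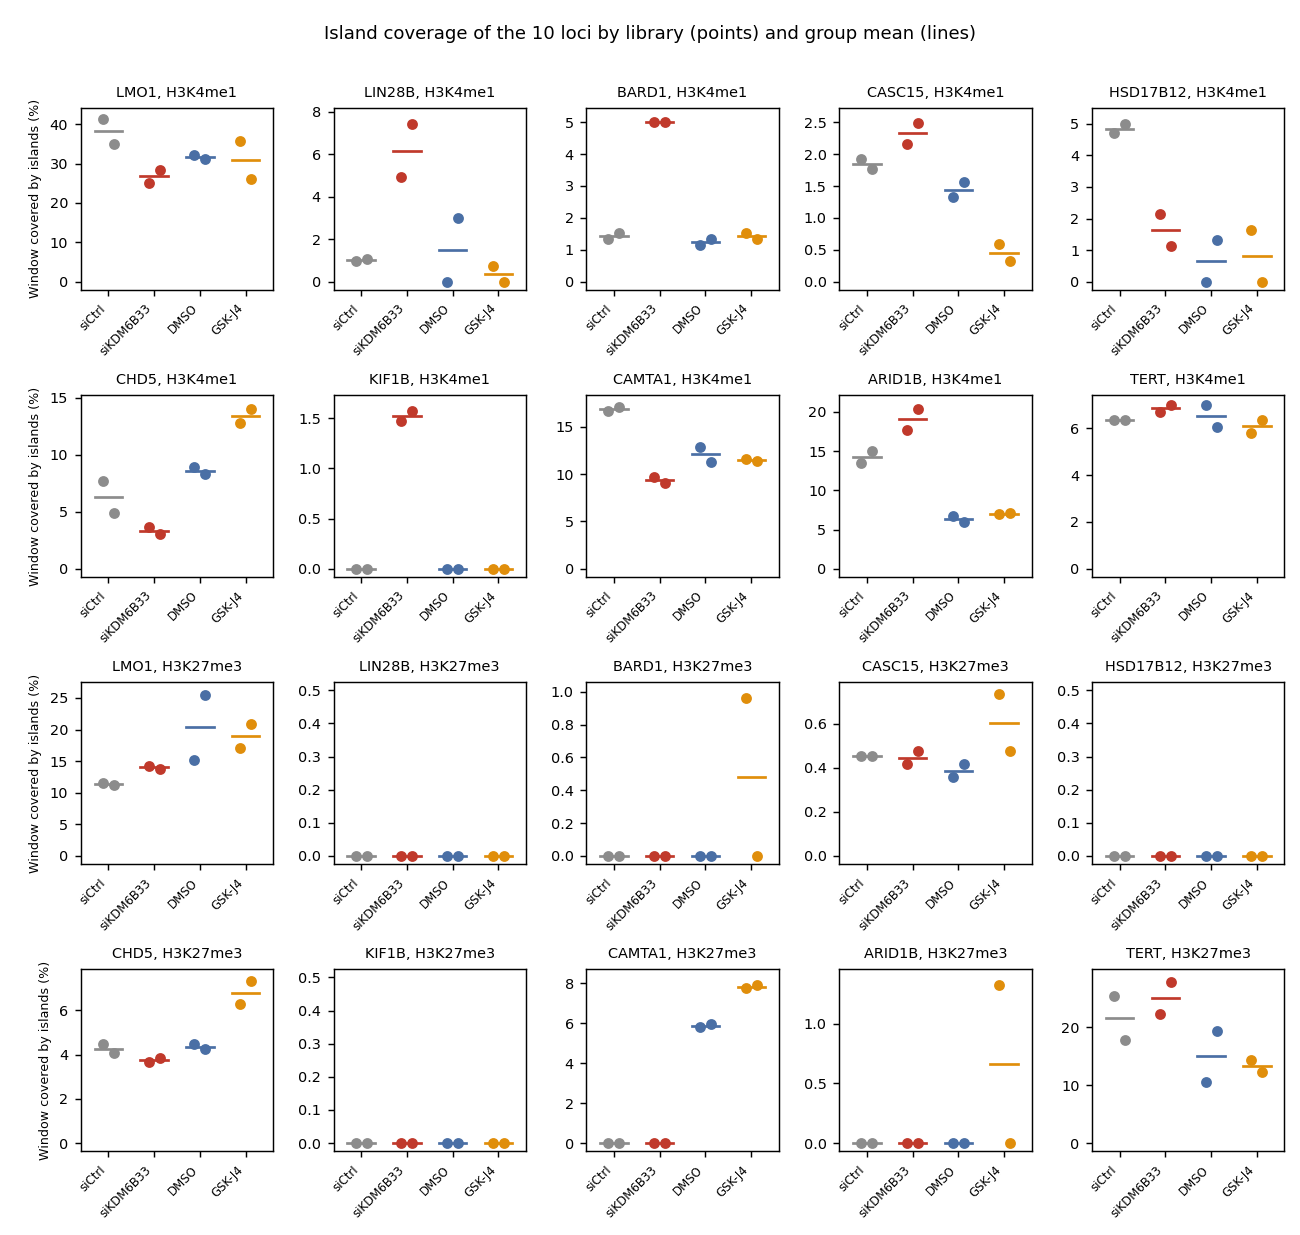
Percent of each gene window (body with 10 kb on each side) covered by islands of H3K4me1 (upper 2 rows) and H3K27me3 (lower 2 rows), with a point for each library, a line at the mean of a group and a separate vertical axis for each panel. For H3K4me1 the siKDM6B33 points lie above both siCtrl points at 6 loci and below them at 4, and CAMTA1 has H3K27me3 islands only in the compound experiment.

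LMO1, a transcriptional coregulator and an oncogene of neuroblastoma and leukemia, lies on the minus strand of chromosome 11 from 8245856 to 8290263. Its canonical transcript starts at 8285425, inside the gene's longest annotation, and its first intron runs over 32.8 kb from 8252052 to 8284884. LMO1 had the highest H3K4me1 coverage of the 10 loci in every group. Islands covered 41.3% and 35.1% of the window under siCtrl and 25.2% and 28.3% under siKDM6B33, so both knockdown libraries lay under both controls. With DMSO the values were 32.3% and 31.1%, and under GSK-J4 35.7% and 26.1%, and these groups overlapped.

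Most of this mark was a stretch of up to 24.0 kb at chr11:8243201-8267200, which spans the 3′ part of the first intron and the 3 exons after it. Its islands summed to 22.4 and 18.6 kb under siCtrl, 9.6 and 12.6 kb under siKDM6B33, 17.0 and 18.2 kb under DMSO and 16.4 and 12.2 kb under GSK-J4. The first intron by itself did not separate the groups. It was covered over 44.3% and 30.9% under siCtrl against 27.5% and 34.8% under siKDM6B33 (means 37.6 ± 9.48 and 31.2 ± 5.17, SD of n = 2, exact two-sided p = 0.667 by permutation), and without siCtrl replicate 1 the difference was 0.256 percentage points in the other direction. The narrow peaks in that intron did separate them, with 20 and 18 under siCtrl and 12 and 13 under siKDM6B33 (exact permutation p = 0.33). In the compound experiment the intron held 12 and 9 peaks under DMSO and 9 in each GSK-J4 library, which met the controls at 9.

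Of 45 clusters of H3K4me1 narrow peaks at LMO1, 3 were called in all 8 libraries of the mark, and 2 of these lay in the first intron. The window of 100 bases on each side of the summit of the cluster with the higher rank, at chr11:8264071-8264271 (hg19, plus strand, intronic, 26.1 kb from the 5′ end), is shown as one of these 2. Capitals mark CAGCTG, the E-box of proneural factors.
LMO1 first intron: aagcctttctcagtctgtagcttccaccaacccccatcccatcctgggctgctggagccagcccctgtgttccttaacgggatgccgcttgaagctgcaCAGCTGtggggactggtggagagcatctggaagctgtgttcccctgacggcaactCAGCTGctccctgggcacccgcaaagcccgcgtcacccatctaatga
It holds that motif at 2 places, and 14.1% of all 362037 H3K4me1 cluster windows of that length hold it at least once. The pileup at the summit was 27 and 19 tags under siCtrl, 14 and 23 under siKDM6B33, 13 and 10 under DMSO and 10 and 8 under GSK-J4. The knockdown and control libraries overlapped there. The other 2 constant clusters had fewer tags in both knockdown libraries than in both controls, as did 43.3% of 10816 such clusters in the genome.

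The H3K27me3 islands of LMO1 lay in different places in the experiments. In all 4 libraries of the knockdown experiment they covered the 5′ end, at chr11:8283001-8292200, over 7.4 and 7.2 kb under siCtrl and 9.2 and 8.8 kb under siKDM6B33, and none lay further into the gene. These islands took in the canonical start and the upstream start. With DMSO no island covered the 5′ end, and under GSK-J4 only replicate 1 had one, of 2.4 kb. The compound libraries instead had H3K27me3 islands at chr11:8246801-8259400 (7.8 and 12.6 kb under DMSO, 6.4 and 9.0 kb under GSK-J4) and chr11:8262601-8267000 (2.0 and 3.8 kb, 2.2 and 4.4 kb), within the long H3K4me1 stretch. With DMSO, 9.8 of 9.8 kb and 16.4 of 16.4 kb of the H3K27me3 length at LMO1 lay inside H3K4me1 islands of the same treatment, against 4.2 of 7.4 kb and 3.0 of 7.2 kb under siCtrl. For H3K4me1, the canonical start was within 1 kb of an island in both siKDM6B33 libraries and in neither siCtrl library.

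**Figure D2:**
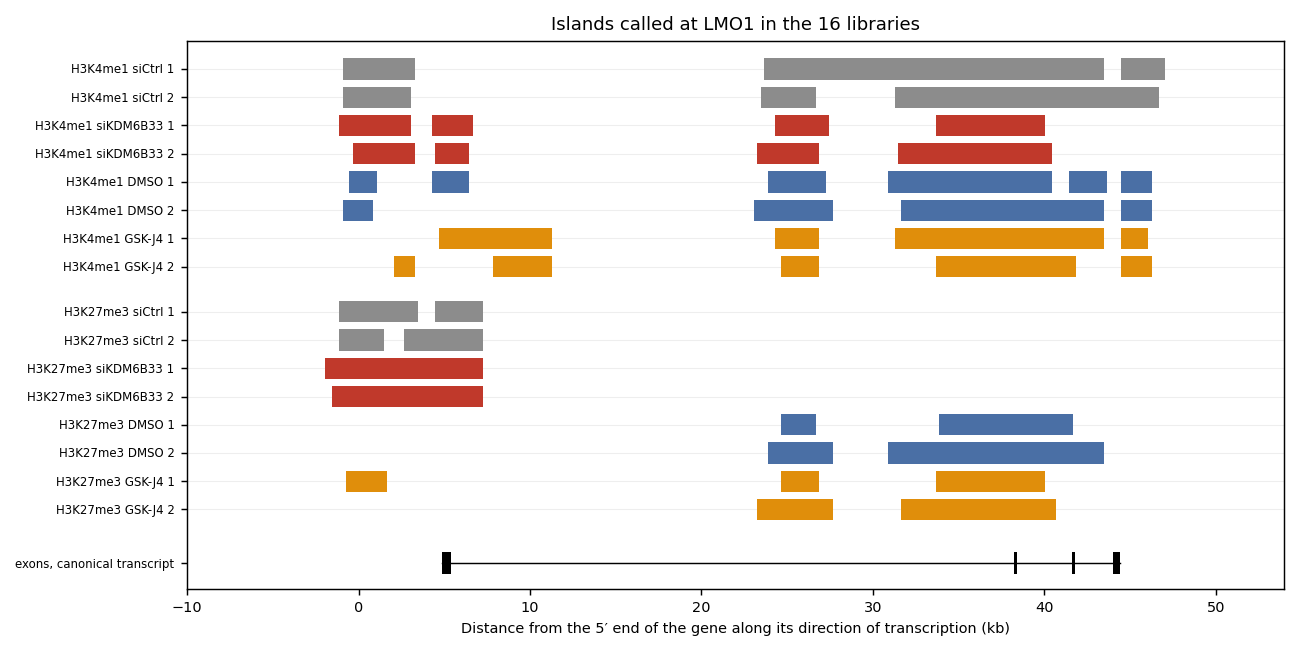
Islands at LMO1 as horizontal bars for each of the 16 libraries, against the distance from the 5′ end of the gene in kb, with the exons of the canonical transcript below. H3K27me3 lies at the 5′ end in the 4 knockdown-experiment libraries and 23.3 to 43.5 kb into the gene in the 4 compound-experiment libraries, where H3K4me1 lies in all 8 libraries.

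CASC15, a long noncoding RNA gene of the neuroblastoma risk locus on the short arm of chromosome 6, runs on the plus strand from 21664415 to 22654684. It contains NBAT1, a long noncoding RNA gene on the opposite strand (22133434 to 22147422), and the assay does not tell strands apart. Most of the gene was bare: of 102 tiles of 10 kb, 12 met an H3K4me1 island and 5 an H3K27me3 island in at least 1 library, and all 5 were among the 12.

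An H3K27me3 island at chr6:21663001-21668000 covered the 5′ end of CASC15 in all 8 libraries, over 4.6 kb in both siCtrl libraries, 4.2 and 4.8 kb under siKDM6B33, 3.6 and 4.2 kb under DMSO and 2.2 and 4.8 kb under GSK-J4. The groups of each experiment overlapped. The only narrow H3K27me3 cluster of the 10 loci that was called in all 8 libraries lay there, and it is shown for that reason (chr6:21664610-21664810, hg19, plus strand, 0.295 kb inside the gene). Capitals mark TTATCT, the reverse complement of the GATA factor motif AGATAA.
CASC15 5′ end: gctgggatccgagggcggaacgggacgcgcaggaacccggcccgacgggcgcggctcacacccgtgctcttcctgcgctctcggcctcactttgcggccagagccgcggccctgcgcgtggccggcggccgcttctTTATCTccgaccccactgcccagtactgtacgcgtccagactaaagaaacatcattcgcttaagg
The window is 67.2% G and C and holds 25 CpG, against medians of 50.2% and 3 over 214207 H3K27me3 cluster windows, of which 9.52% hold the GATA motif. Its summit held 22 and 21 tags under siCtrl, 20 and 25 under siKDM6B33, 8 and 13 under DMSO and 18 and 10 under GSK-J4. H3K4me1 was called over the same start in both siKDM6B33 libraries (3.4 and 2.2 kb) and in DMSO replicate 1 (2.6 kb), and in no siCtrl or GSK-J4 library.

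Inside CASC15 only 2 of 10 H3K4me1 regions were called in all 8 libraries. One is at chr6:21952401-21955000 (2.2 kb in both siCtrl libraries and 2.2 and 2.0 kb after knockdown), in an intron of the canonical transcript. Its cluster, the H3K4me1 cluster of CASC15 called in most libraries (7), is shown for comparison with the start.
CASC15 intron: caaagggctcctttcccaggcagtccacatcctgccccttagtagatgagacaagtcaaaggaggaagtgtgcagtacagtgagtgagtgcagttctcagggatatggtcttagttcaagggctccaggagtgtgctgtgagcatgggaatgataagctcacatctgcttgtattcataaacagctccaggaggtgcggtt
This window holds 1 CpG and none of the 4 motifs searched on both strands, which were the GATA motif AGATAA, the proneural E-box CAGCTG, the E-box of MYC proteins CACGTG and the homeodomain core TAATTA. The other constant region, at chr6:21990601-22001800, was covered over 4.2 kb in both siCtrl and both DMSO libraries, 5.4 and 9.2 kb under siKDM6B33, and 3.0 and 1.6 kb under GSK-J4, so it lay above its controls after knockdown and under them with the compound.

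The same order was seen at the 5′ end of NBAT1, in the region chr6:22145001-22151600. Its islands measured 3.4 kb in both siCtrl libraries and 6.0 and 6.6 kb after knockdown, whereas DMSO libraries had 0.800 and 2.8 kb and neither GSK-J4 library had any. The start of NBAT1 itself lay under the siKDM6B33 islands alone, and the siCtrl and DMSO islands lay upstream of it. At 2 sites the mark was called under siCtrl and not after knockdown, at chr6:21748201-21752600 (4.2 and 4.0 kb) and chr6:22076801-22080200 (2.8 and 2.6 kb). The reverse was seen at the start of CASC15 and at chr6:21986001-21989800 (3.8 and 2.0 kb), which was called in the siKDM6B33 libraries alone. Over the whole window H3K4me1 covered 1.92% and 1.76% under siCtrl and 2.16% and 2.49% under siKDM6B33, and 1.33% and 1.56% under DMSO and 0.594% and 0.317% under GSK-J4 (exact permutation p = 0.33 in both). With lists cut to equal covered length the knockdown difference turned to 0.218 percentage points lower, and the groups overlapped. The number of narrow H3K4me1 peaks did not follow the islands, with 57 and 51 under siCtrl, 56 and 57 under siKDM6B33, 26 and 23 under DMSO and 27 and 26 under GSK-J4.

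**Figure D3:**
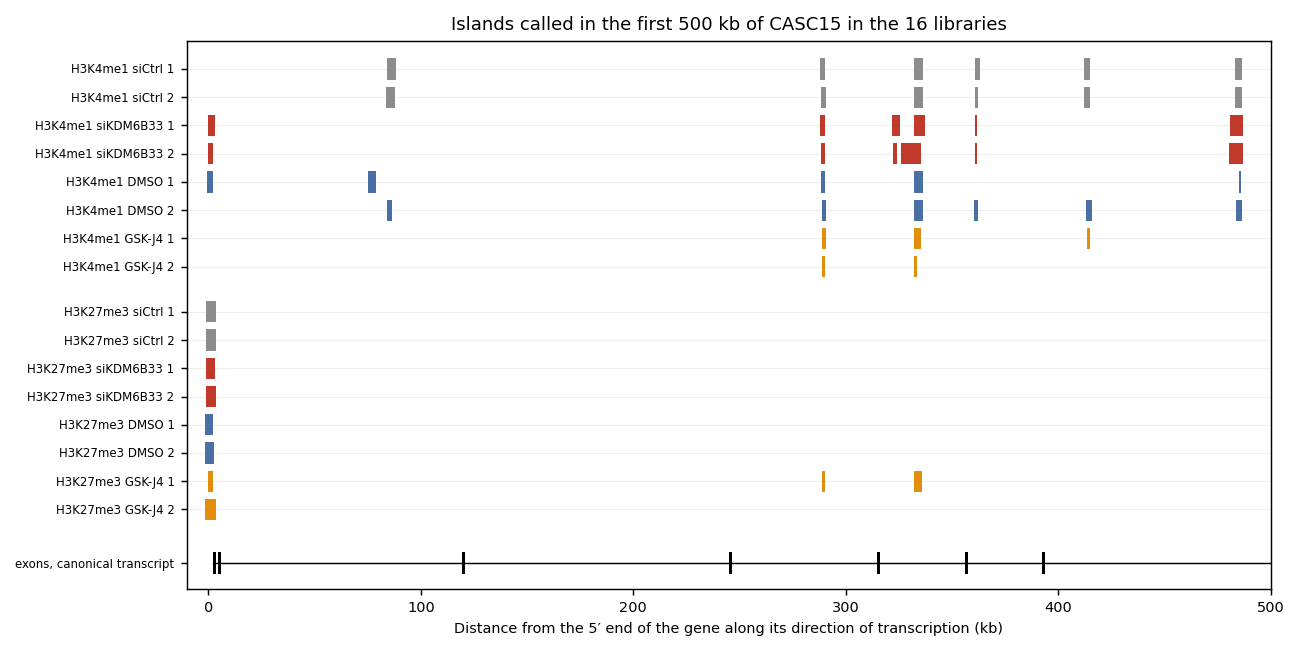
Islands in the first 500 kb of CASC15 as horizontal bars for each of the 16 libraries, against the distance from the 5′ end in kb, with exons of the canonical transcript below. H3K27me3 stands at the 5′ end in all 8 libraries, and at 481 to 487 kb, by the 5′ end of NBAT1, all 4 libraries of the knockdown experiment have an H3K4me1 island and no GSK-J4 library has one.

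At the other 3 risk loci H3K4me1 islands over a start were longer in the siKDM6B33 libraries. BARD1, the partner of BRCA1 in a ubiquitin ligase, had a single H3K4me1 region, at chr2:215670001-215675200 over its start, in all 8 libraries. It measured 1.4 and 1.6 kb under siCtrl, 5.2 kb in both siKDM6B33 libraries, 1.2 and 1.4 kb under DMSO and 1.6 and 1.4 kb under GSK-J4. The summit held 8 and 10 tags under siCtrl and 20 and 26 after knockdown, and it is shown as the cluster of BARD1 called in all 8 libraries (chr2:215674508-215674708, hg19, plus strand, upstream of the gene, which is on the minus strand).
BARD1 upstream: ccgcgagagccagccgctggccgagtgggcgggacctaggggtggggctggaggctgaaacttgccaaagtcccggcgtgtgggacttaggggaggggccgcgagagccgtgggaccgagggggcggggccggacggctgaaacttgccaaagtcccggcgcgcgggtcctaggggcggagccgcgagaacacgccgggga
The window is 73.1% G and C with 23 CpG, and it holds none of the 4 motifs. BARD1 shares this region with SNHG31, a long noncoding RNA gene that starts at 215674905 on the other strand. LIN28B, which blocks maturation of let-7 microRNAs, had islands of 3.4 and 7.2 kb at chr6:105401001-105408200, over its canonical start at 105404982, in the siKDM6B33 libraries and in none of the other 6. A second region of this kind lay 119 to 123 kb inside the gene (chr6:105503201-105507200, 3.0 and 3.4 kb). Its window was covered over 0.960% and 1.08% under siCtrl and 4.92% and 7.44% after knockdown, and the compound groups overlapped (0% and 3.0% under DMSO, 0.720% and 0% under GSK-J4). HSD17B12, an enzyme of very-long-chain fatty acid elongation, showed both directions. The island over its start (chr11:43701401-43704200) measured 1.0 and 1.4 kb under siCtrl and 2.6 and 2.2 kb after knockdown, while islands upstream (chr11:43696201-43699200, 2.6 and 2.4 kb) and in an intron (chr11:43757401-43761400, 3.6 and 4.0 kb) were called in both siCtrl libraries and in neither siKDM6B33 library. A further intronic island (chr11:43714401-43716400) measured 2.0 kb in both siCtrl libraries and 1.6 kb in siKDM6B33 replicate 1 alone.

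CHD5, a chromatin remodeler of neurons and a candidate tumor suppressor, is on chromosome 1 from 6161847 to 6240381 on the minus strand. Its start also carried H3K27me3 in all 8 libraries, at chr1:6236201-6243400, with islands of 4.4 and 4.0 kb under siCtrl, 3.6 and 3.8 kb under siKDM6B33, 4.4 and 4.2 kb under DMSO and 3.4 and 7.2 kb under GSK-J4. GSK-J4 replicate 1 alone had another of 2.8 kb (chr1:6230401-6233200), and the window was covered over 4.47% and 4.26% under DMSO and 6.29% and 7.31% under GSK-J4. H3K4me1 over that start (chr1:6238401-6242200) was called in both siKDM6B33 libraries (3.6 and 3.0 kb) and in all 4 compound libraries (2.4 to 3.0 kb) and in neither siCtrl library. The 2 intronic H3K4me1 regions of CHD5, at chr1:6219801-6224200 and chr1:6229601-6234400, had the opposite pattern, with 3.6 and 3.0 kb and 4.0 and 1.8 kb under siCtrl and no island after knockdown. A narrow cluster inside the second was still called in all 8 libraries, with 13 and 10 tags under siCtrl and 8 in each siKDM6B33 library. Narrow H3K4me1 peaks of the CHD5 window overlapped, with 10 and 9 under siCtrl and 9 and 11 after knockdown. In the whole window H3K4me1 covered 7.71% and 4.87% under siCtrl and 3.65% and 3.04% under siKDM6B33, and 8.93% and 8.32% under DMSO and 12.8% and 14.0% under GSK-J4. The GSK-J4 islands included one of 3.0 and 5.8 kb at the 3′ end (chr1:6158001-6163800), which reaches KCNAB2 and was called in no other library. The H3K4me1 coverage groups overlapped with islands of at least 2 kb in the knockdown experiment and with equal covered length in the compound experiment.

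KIF1B, a kinesin that moves vesicles along axons, had a single region, over its start (chr1:10269801-10272800), of 2.8 and 3.0 kb in the siKDM6B33 libraries and absent from the other 6. Its narrow H3K4me1 peaks went the other way in the same libraries, with 7 and 8 under siCtrl and 5 and 3 after knockdown.

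CAMTA1, a calmodulin-binding transcription factor, held more H3K4me1 island length than the other loci in 7 of the 8 libraries, with ARID1B above it in siKDM6B33 replicate 2. Of its 31 H3K4me1 regions, 12 were called in all 8 libraries and 10 in both siCtrl and neither siKDM6B33 library. Regions with the reverse pattern numbered 2, one over the start of CAMTA1 (chr1:6844401-6847800, 2.8 and 3.4 kb) and one over the start of VAMP3 in the flank. The window was covered over 16.7% and 17.1% under siCtrl and 9.72% and 9.08% under siKDM6B33 (exact permutation p = 0.33), and over 12.9% and 11.3% under DMSO and 11.6% and 11.4% under GSK-J4, which overlapped. Narrow peaks numbered 139 and 134 under siCtrl and 91 and 77 after knockdown.

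The highest ranked constant cluster of CAMTA1 (chr1:7618059-7618259, hg19, plus strand, intronic, 773 kb from the 5′ end) is shown because its summit was the highest among the clusters of these loci called in all 8 libraries. Capitals mark TTATCT, the reverse complement of AGATAA, which 11.1% of H3K4me1 windows hold.
CAMTA1 intron: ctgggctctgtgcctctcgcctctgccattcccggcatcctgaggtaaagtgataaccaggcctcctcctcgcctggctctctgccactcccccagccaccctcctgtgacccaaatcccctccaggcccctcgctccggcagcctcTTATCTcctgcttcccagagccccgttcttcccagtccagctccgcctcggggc
Its summit held 57 and 56 tags under siCtrl, 39 and 35 under siKDM6B33, 26 and 25 under DMSO and 15 and 21 under GSK-J4. Of the 11 CAMTA1 clusters called in all 8 libraries, 10 had fewer tags in both siKDM6B33 libraries than in both siCtrl libraries and 0 had more. The genome background was 0.0849 and 0.0902 tags in the siCtrl and 0.105 and 0.107 in the siKDM6B33 libraries, and its part in these tags was not tested. Over 10816 such clusters, 43.3% were lower and 32.4% higher.

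CAMTA1 had no H3K27me3 island in the knockdown experiment, and in the compound experiment H3K27me3 covered 5.8% and 5.95% of it under DMSO and 7.73% and 7.89% under GSK-J4. Nearly all of this length lay inside H3K4me1 islands of the same treatment, 58.2 of 58.2 kb and 54.4 of 59.8 kb under DMSO, and 77.0 of 77.6 kb and 72.6 of 79.2 kb under GSK-J4. Both GSK-J4 libraries lay above both controls. With an equal number of islands from each library the difference went from 1.93 to 0.558 percentage points and the groups overlapped, and with equal covered length it was 1.37 and they did not overlap.

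**Figure D4:**
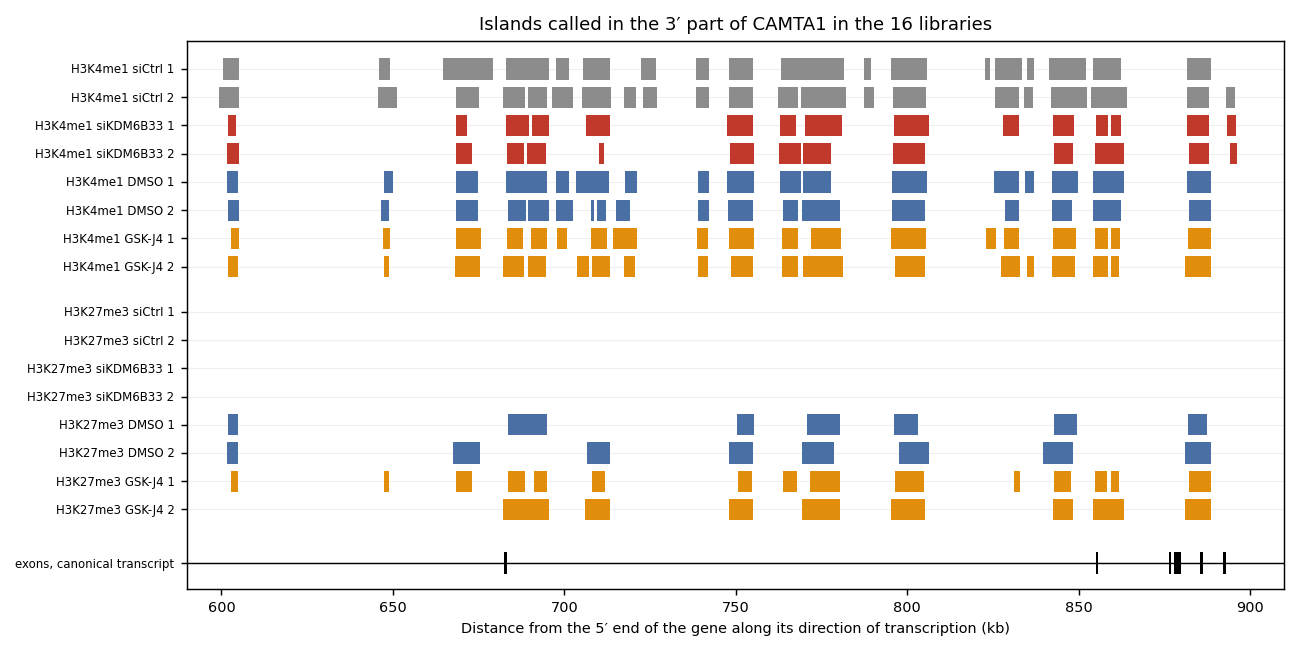
Islands in the 3′ part of CAMTA1 as horizontal bars for each of the 16 libraries, against the distance from the 5′ end in kb, with exons of the canonical transcript below. The H3K27me3 islands of the DMSO and GSK-J4 libraries lie over H3K4me1 islands, and the 4 libraries of the knockdown experiment have no H3K27me3 island here.

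ARID1B, a subunit of the BAF chromatin remodeling complex, had more H3K4me1 after knockdown. Its window was covered over 13.5% and 15.0% under siCtrl and 17.7% and 20.4% under siKDM6B33, and over 6.73% and 5.94% under DMSO and 6.95% and 7.08% under GSK-J4. The compound difference turned negative with equal covered length. At the 5′ end an island of 5.2 and 3.4 kb over the start (chr6:157096201-157102600) was called in the siKDM6B33 libraries alone, and the region after it (chr6:157106201-157123000) measured 5.8 and 7.6 kb under siCtrl and 15.4 and 13.4 kb after knockdown. Neither DMSO nor GSK-J4 libraries had either. A region further inside the gene (chr6:157292001-157311600) measured 3.6 and 10.6 kb under siCtrl and 17.8 and 13 kb after knockdown, and 2.2 to 5.4 kb in the compound libraries. Beyond 2 kb from the starts islands summed to 61.6 and 68.0 kb under siCtrl and 77.3 and 89.4 kb after knockdown. Of 4 constant clusters, 3 had more tags in both siKDM6B33 libraries and 0 had fewer (32.4% and 43.3% of all clusters called in 8 libraries). Narrow peaks numbered 58 and 68 under siCtrl, 79 and 72 under siKDM6B33, 33 and 27 under DMSO and 39 and 37 under GSK-J4. H3K27me3 islands were called at ARID1B in GSK-J4 replicate 1 alone (4 regions, of 1.2 to 1.8 kb), and that is the library that stood apart.

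TERT, the catalytic subunit of telomerase, lies on chromosome 5 from 1253262 to 1295183 on the minus strand. Its window, flanks included, had the highest H3K27me3 coverage of the 10 loci in the knockdown experiment, 25.4% and 17.7% under siCtrl and 22.2% and 27.7% under siKDM6B33. With DMSO it was 10.6% and 19.3% and under GSK-J4 14.4% and 12.2%. Neither pair of groups separated. A region at the 5′ end, chr5:1288801-1296400, carried 6.6 and 2.6 kb under siCtrl and 6.6 and 6.4 kb under siKDM6B33, and no compound library had an island there. A second region by the 3′ end, chr5:1238801-1255200, was called in all 8 libraries (8.2 to 16.4 kb) and reaches SLC6A18, the gene downstream. TERT ends 41.9 kb from its 5′ end. The islands of this region began beyond that point in all libraries but siKDM6B33 replicate 2 (41.2 kb) and DMSO replicate 2 (40.0 kb). The H3K27me3 coverage of the window in the compound experiment came from this region alone. The only H3K4me1 region of the window, chr5:1242801-1247600, overlaps the 3′ end of SLC6A18 and lies outside TERT, and the higher H3K4me1 coverage of the TERT window after knockdown (6.36% in both siCtrl libraries against 6.68% and 7.01%) was 0 points with a flank of 5 kb. Its narrow H3K27me3 peaks numbered 4 and 5 under siCtrl, 6 and 8 under siKDM6B33, 0 and 0 under DMSO and 3 and 6 under GSK-J4.

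Taking the windows apart by distance showed where the knockdown differences in H3K4me1 lay. Within 2 kb of the gene's 5′ end or its canonical start, a split chosen after the values were seen, H3K4me1 islands summed over the 10 loci to 5.76 and 6.16 kb under siCtrl and 29.7 and 28.3 kb under siKDM6B33 (exact permutation p = 0.33). All 9 members with an island there had more in both siKDM6B33 libraries, and TERT had none in any. Among 5992 genes, measured within 2 kb of the 5′ end alone, 74.3% had more and 2.60% less, so more H3K4me1 near starts was common to many genes. These shares and the member count rest on unlike definitions. Within 1 kb of the 5′ end alone, LIN28B had no island in any library. LMO1 was covered there over 96.9% in both siCtrl libraries and 100% and 66.9% under siKDM6B33, which overlapped. With an equal number of islands 8 members still had more, with equal covered length 7 did, and 0 had less in either. In the rest of the windows the sums were 293 and 296 kb under siCtrl and 214 and 229 kb under siKDM6B33. Here 4 members had more and 4 less (50.2% and 23.7% of 7544 genes, whose windows were split at the 5′ end alone). Without CAMTA1 the distal sums were 126 and 124 kb under siCtrl and 120 and 141 kb under siKDM6B33. These overlapped, and the mean difference of 5.53 kb became -5.22 kb without siKDM6B33 replicate 2.

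An H3K4me1 island within 1 kb of the 5′ end was called in both siKDM6B33 libraries and in neither siCtrl library at CASC15, CHD5, KIF1B, CAMTA1 and ARID1B, that is at 5 of 10 members and at 28.5% of 11295 genes. The reverse was seen at 0 members and 0.425% of genes. With GSK-J4 no member and 0.407% of genes showed the first pattern. LMO1 had an island near its 5′ end in both DMSO libraries and in neither GSK-J4 library, as 2.00% of genes had. H3K27me3 lay within 1 kb of the 5′ end at LMO1, CASC15 and CHD5 in both siCtrl libraries (14.5% of genes), and at CASC15 and CHD5 in both libraries of every group (10.5% to 15.6% of genes in a group). At these 2 genes both marks then lay over the start after knockdown.

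**Figure D5:**
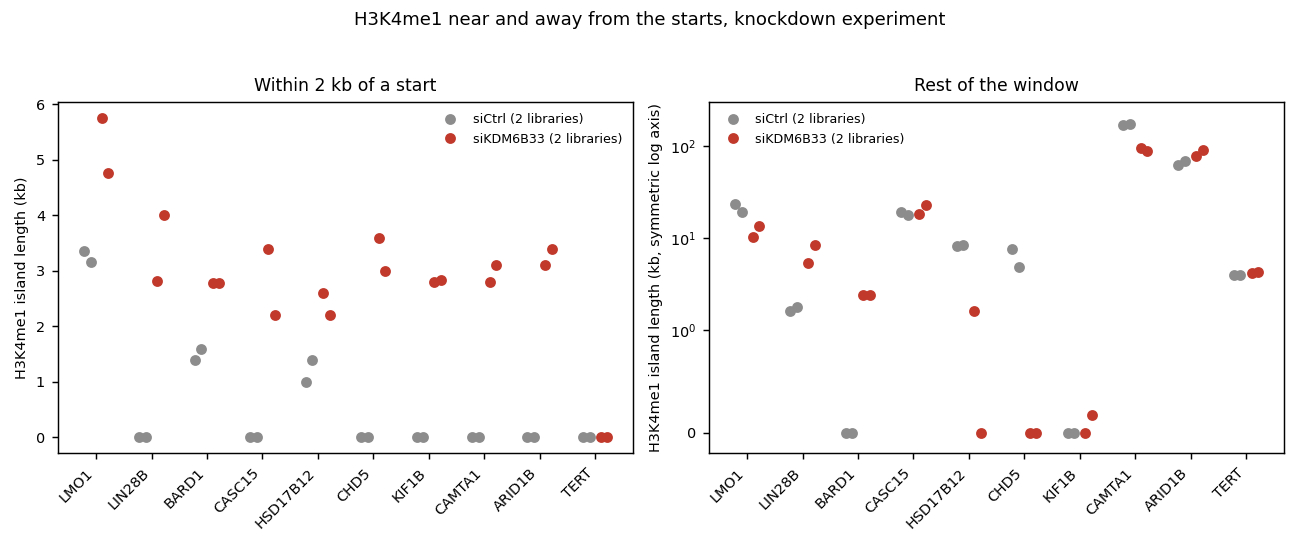
H3K4me1 island length in kb within 2 kb of the starts of each gene (left, linear axis) and in the rest of its window (right, symmetric log axis) in the 2 siCtrl and 2 siKDM6B33 libraries. Near the starts the siKDM6B33 points lie above the siCtrl points at 9 loci, with TERT at 0 in all 4, and away from them the order differs between loci, with CAMTA1, LMO1, HSD17B12 and CHD5 lower.

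Narrow peaks were counted by their summits in the same windows. For H3K4me1 after knockdown 3 members had more peaks in both treated libraries (LIN28B, ARID1B and TERT) and 4 had fewer (LMO1, HSD17B12, KIF1B and CAMTA1), where 34.3% and 19.7% of 10016 genes did. The 10 windows held 328 and 326 peaks under siCtrl and 290 and 275 under siKDM6B33, and without CAMTA1 the other 9 held 189 and 192 against 199 and 198, in the other direction. With GSK-J4 ARID1B had more and LMO1, LIN28B and CAMTA1 fewer (17.7% and 7.17% of 10358 genes). For H3K27me3, CASC15 and TERT had more peaks after knockdown and none fewer (18.8% and 4.63% of 9429 genes), and LIN28B, HSD17B12, ARID1B and TERT had more under GSK-J4 and none fewer (25.2% and 2.21% of 10060 genes). With an equal number of peaks from each library, the compound differences of HSD17B12 and ARID1B turned to 0.5 and 1.5 peaks fewer on average.

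Windows of this length were chosen at 10 clusters by one rule, the cluster of a mark called in most libraries at a locus, where that was at least 6. The motif CAGCTG was found in the window of LMO1, AGATAA in those of CAMTA1 and CASC15 (5′ end), and none of the 4 motifs in the other 7. The windows at the starts of HSD17B12 and CHD5 (H3K27me3) held 17 and 22 CpG and that of LIN28B, 4.04 kb inside the gene, held 34, whereas intronic windows at LMO1, ARID1B and CAMTA1 held 6, 4 and 8.

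Among 19 other genes linked to neuroblastoma by association, rearrangement, deletion or mutation, 13 of 15 with an H3K4me1 island had higher coverage in both siKDM6B33 libraries and 2, CPZ and CASZ1, had lower (61.1% and 18.8% over all genes tested). The shares in this paragraph are over genes with windows of at least 60 kb, a limit that was not set for these 19 genes. The 13 were DUSP12, HACE1, SPAG16, RSRC1, MLF1, DLG2, PTPRD, CADM1, ARID1A, NF1, PTPN11, SOX4, a neighbour of CASC15, and NBAT1, which lies inside CASC15. The NBAT1 window had 10.0% in both siCtrl libraries against 17.7% and 19.4% after knockdown, from islands already counted in the CASC15 window. With GSK-J4, SPAG16, DLG2, CADM1 and CASZ1 were higher and RSRC1 and NBAT1 lower, 4 and 2 of 9 with an island (24.2% and 18.1%). For H3K27me3, CPZ and DLG2 were higher and DUSP12 lower after knockdown, 2 and 1 of 5 (43.2% and 11.0%), and DLG2 and CASZ1 were higher under GSK-J4, 2 of 7 (17.2%). CASZ1 had 49.4% and 54.8% H3K4me1 coverage under siCtrl and 34.8% and 37.8% after knockdown.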

How the data were processed

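CUT&Tag of H3K27me3 and H3K4me1 was analysed in 16 BE2C libraries, grouped by their titles. The authors aligned reads to hg19 with BWA 0.7.12, removed duplicates with Picard 1.65 and kept unique pairs of 150 to 2000 bp. The authors called islands with SICER 1.1 (200-bp window, 600-bp gap, FDR 1e-05), and the deposited island score was used only to rank islands. The authors called narrow peaks with MACS2 (2.2.7.1 in the methods, 2.1.1 in the processing notes) at q 0.05, and the deposited lists give fold enrichment (a ratio), −log10 p and −log10 q of each peak in its own library. All lists were called library by library. The authors' E. coli scaling and reads per region were not used here.

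The members and gene lists were chosen with earlier results of these data known. All 10 members are named, and the second list of 19 genes is given by counts and by the genes whose groups did not overlap. Coverage, summits in windows and exact two-sided permutation p-values came from scripts in Python 3.11.15 (SciPy 1.17.1, pandas 2.3.3, NumPy 2.4.6), with genes and sequence from GRCh37 and GENCODE 44 (hg19, 1-based), and plots with matplotlib 3.10.9. Groups were called separate when all treated values lay on one side of all control values. Background shares were taken over genes with windows of at least 60 kb and a call. Summit tags were solved from fold and −log10 p to within 0.01, and clusters are peaks of a mark that overlap across libraries. Coverage, counting and the separation rule were tested on simulated lists. Alternatives were other flanks, island and peak filters, equal numbers or lengths, each replicate left out, and replicate blocks.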

Additional observations from a re-analysis of the deposited data

Results flagged for a closer look

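At 2 loci the groups separated in opposite directions in the knockdown and compound experiments, and the difference between the experiments was not tested. CHD5 H3K27me3 coverage was lower by 0.507 points after knockdown (difference -0.507) and 2.44 points higher with GSK-J4. Its knockdown groups overlapped both within 2 kb of the start and in the rest of the window. CHD5 H3K4me1 coverage differed by -2.94 points after knockdown and by 4.77 points with GSK-J4. CASC15 H3K4me1 coverage differed by 0.485 points after knockdown and by -0.99 points with GSK-J4. The 2 experiments have separate controls. The knockdown value of CASC15 turned negative (-0.218) with equal covered length, and those of CHD5 kept their sign under the alternatives run, although its groups overlapped with the gene body alone (H3K27me3, knockdown), an equal number of islands (H3K27me3, compound), islands of at least 2 kb (H3K4me1, knockdown) and equal covered length (H3K4me1, compound).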

How the results depend on the processing

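The H3K4me1 counts after knockdown (6 members higher, 4 lower) stayed within 1.5 times under every alternative run, as did the 9 members with longer start-proximal islands. Without CAMTA1 the pooled H3K4me1 differences after knockdown turned positive (1.09 points of coverage, 8 narrow peaks, and 5.53 kb of distal length, where the groups overlapped and the value was -5.22 kb without siKDM6B33 replicate 2), as did that of narrow peaks under the compound (6). The compound counts were less stable. With an equal number of islands, 0 members had higher H3K27me3, and CASC15 turned to -0.0396 points, whereas with equal covered length 3 were higher. For H3K4me1, 1 member was higher with islands of at least 2 kb and 1 with an equal number of islands, where ARID1B turned to -0.154 points. With equal covered length 0 were higher and 3 lower, with ARID1B at -0.858 points. With the gene body alone 0 members had lower H3K27me3 after knockdown. CASC15 H3K4me1 after knockdown was -0.218 points with equal covered length. Mean differences in narrow peaks that turned were -0.5 (HSD17B12) and -1.5 (ARID1B) for H3K27me3 under the compound with an equal number of peaks, -0.5 for TERT H3K4me1 after knockdown in the gene body alone, 0.5 for LIN28B H3K4me1 under the compound at −log10 q of at least 2, and 2 for the 10 windows with peaks within 100 bp joined. The cause was not tested for any of these.

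Leaving out 1 library moved the number of members with H3K27me3 higher after knockdown from 1 to 3 (3 without siKDM6B33 replicate 1) and lower from 1 to 2 (2 without siKDM6B33 replicate 2). Under the compound, the H3K27me3 counts ran from 3 to 5 higher (5 without DMSO replicate 2 or GSK-J4 replicate 2) and 0 to 2 lower (2 without DMSO replicate 1), and the H3K4me1 counts from 2 to 5 higher (5 without GSK-J4 replicate 2) and, from 1 lower with all libraries, 2 to 3 lower (3 without DMSO replicate 2 and 2 without each of the others). A single library cannot overlap itself, so such counts are apt to be larger. The differences in the LMO1 first intron ran from -7.01 to 7.61 points (H3K27me3, compound), -13.1 to 0.256 (H3K4me1, knockdown) and -4.09 to 12 (H3K4me1, compound), and that of all H3K4me1 peaks under the compound from -10 to 4.

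The titles give replicate numbers but do not say whether equal numbers were prepared together, and the main counts did not pair them. The correlation of replicate differences over genes was 0.0118, 0.122, 0.016 and -0.111 in the 4 comparisons (H3K27me3 knockdown and compound, then H3K4me1). These values cannot decide whether equal numbers belong together. With a replicate block the coverage counts were 6 higher and 4 lower for H3K4me1 after knockdown, the pooled difference was -1.48 points with an exact p of 0.5, the smallest possible, and no other coverage count moved. For narrow peaks, the members with more H3K4me1 peaks under the compound went from 1 to 2. Crossed numbers for H3K4me1 under the compound, tried after the data were seen, gave 3 higher and 2 lower.

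Depth limits these lists: a site without an island is one where none was called at this depth.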

Other observations

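For H3K4me1, 44.4% of the 45 narrow peak clusters at LMO1 were called in 1 library alone, against 54.3% to 77.8% at the other 9 loci and 58.7% of all 362042 clusters. For H3K27me3, 55.6% of the 18 clusters at TERT and 62.5% of the 16 at CHD5 were called in 1 library, and 77.7% of all 214209 were. The only H3K27me3 cluster of the 10 loci that was called in all 8 libraries lies at the 5′ end of CASC15.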
